A study of Macaca fuscata with 12 samples.

Results

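FLT1, SLC2A1 and ABCB1 are 3 genes known for their use by the endothelial cells of brain capillaries. They were read by 5 probe sets of the array, 2 for FLT1, 2 for SLC2A1 and 1 for ABCB1, out of 52766 probe sets tested and 14132 genes with a symbol of their own. FLT1 was chosen from these values because it lay lower around the intraparietal sulcus (IPS) than around the lateral sulcus (SII), so its difference between the regions, and that of the other members, is given below as a description with no test. Members are all probe sets whose only symbol in the array's gene table is one of the 3.

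Tissue came from the left hemisphere of 8 Japanese macaques (Macaca fuscata) and was hybridised to 12 Affymetrix rhesus arrays. The 3 SII control arrays held tissue that includes the secondary somatosensory cortex from untrained animals, a female of 4 years 6 months and males of 5 years 4 months and 5 years 10 months. The 3 SII trained arrays held the same tissue from animals trained in tool use, males of 5 years 7 months and 5 years 1 month and a female of 3 years 10 months. The 3 IPS control arrays came from the 2 control males above and a male of 3 years 9 months. The 3 IPS trained arrays came from the 2 trained males above and a male of 6 years. The length of training and what the control animals did in that time are not given in the sources used here. Because 4 animals gave both regions, the arrays of IPS and SII are not from separate animals.

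FLT1 encodes vascular endothelial growth factor (VEGF) receptor 1. It binds VEGFA, VEGFB and placental growth factor, signals weakly, and in its soluble form acts as a decoy that limits signalling through KDR, the main VEGF receptor of endothelium. SLC2A1 encodes GLUT1, the glucose carrier of the blood-brain barrier, which astrocytes also use, and it is a classic target of hypoxia-inducible factors. ABCB1 encodes P-glycoprotein, an ATP-driven pump that returns drugs and other lipophilic compounds from the endothelial cell to the blood.

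Each value below is a log2 expression value that the authors centred, so that 0 is the median of that probe set over the 12 arrays. It gives no level, and no probe set can be set against another. A rough class of signal was read from the spacing of the deposited numbers. The A1 probe set of FLT1 (its ID ends in A1_at) carried the array's lowest possible value, here called the floor, in 3 arrays. A value at the floor is an upper limit. The S1 probe set of FLT1 (its ID ends in S1_at) and the gDNA probe set of SLC2A1 (MmugDNA.42958.1.S1_at) had a low signal. The STS probe set of SLC2A1 (MmuSTS.3872.1.S1_at) and the ABCB1 probe set (MmugDNA.16558.1.S1_at) had a middle signal. The gene table ties both FLT1 probe sets to the same sequence record, but the sources used here do not say which strand or part of the transcript each reads.

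The tissue carried markers of cortex and of its vessels. GFAP, SLC1A2, MBP, SYT1 and GAD1 had a high signal, and 7 of the 9 endothelial markers measured (PECAM1, CDH5, VWF, CLDN5, TEK, EMCN and ERG) a middle one, while TIE1 was low and KDR carried the floor. Each gene here took the class of its strongest probe set. The endothelial mean that follows averages the gene means over all probe sets of the 9 genes, KDR included. The mean of the endothelial markers ran from -0.39 to 0.18 in SII control, -0.24 to 0.05 in SII trained, -0.36 to 0.04 in IPS control and -0.24 to 0.09 in IPS trained arrays, so the 4 groups overlapped. In these tissue pieces fewer endothelial cells and less RNA per endothelial cell cannot be told apart. The 27 probe sets of the hybridisation controls averaged 0.44 to 0.54 in SII control 1, SII trained 2 and IPS trained 3, against -0.13 to 0.08 elsewhere. The labels give no hybridisation date, so batches could not be examined. The SII and IPS arrays carry different names in the labels, and if the regions were hybridised apart, region and batch cannot be told apart in any IPS minus SII value below.

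For FLT1, both probe sets lay lower in IPS than in SII in every animal that gave both regions. The S1 probe set was highest in the SII controls, at 1.00, 0.96 and 0.76 (arrays 1 to 3), and read -0.31, 0.80 and -0.38 in the SII trained arrays. In IPS it read -1.44, 0.31 and 1.04 in the controls and -1.95, -2.01 and -1.08 in the trained arrays. The 3 IPS trained arrays lay below every SII array, but IPS control 3 was the highest of all 12. Over 6 arrays per region the mean was 0.47 ± 0.64 in SII and -0.85 ± 1.25 in IPS (SD). The A1 probe set read -1.02 (floor), 1.09 and 1.40 in SII control, 0.27, -0.72 (floor) and 0.80 in SII trained, -0.67, -1.86 (floor) and -1.68 in IPS control, and -0.10, 0.10 and 0.67 in IPS trained arrays. Its mean was 0.30 ± 0.99 in SII and -0.59 ± 1.01 in IPS (SD, n = 6), and the regions overlapped.

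Within the 4 animals the S1 difference, IPS minus SII, was -2.40 and -0.45 in the control males and -1.64 and -0.69 in the trained males, a mean of -1.30 ± 0.90 (SD, n = 4). The A1 difference was -1.77 and -3.26 in the control males, the second with the IPS value at the floor, and -0.37 and -0.14 in the trained males, a mean of -1.38 ± 1.44. For A1 the differences were larger in both control males than in both trained males. These values include the ones that led to the choice of FLT1, and nothing is drawn from them. In the fit the differences were -1.32 for S1 and -0.91 for A1. Over all 23 alternatives, which refit the same chosen values, the S1 difference stayed between -1.58 and -0.97 and the A1 difference between -1.57 and -0.61. The 3' minus 5' actin control value, larger where RNA is less intact, also differed between these animals' regions. In the control males it was -1.88 and -1.71 in SII and 0.02 and 0.23 in IPS. In the trained males it was 1.17 and -1.54 in SII and -0.79 and 1.37 in IPS, where the first went the other way. The SII arrays at -1.88, -1.71 and -1.54 held the highest A1 values. The part of RNA intactness in the FLT1 values was not tested.

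**Figure D1:**
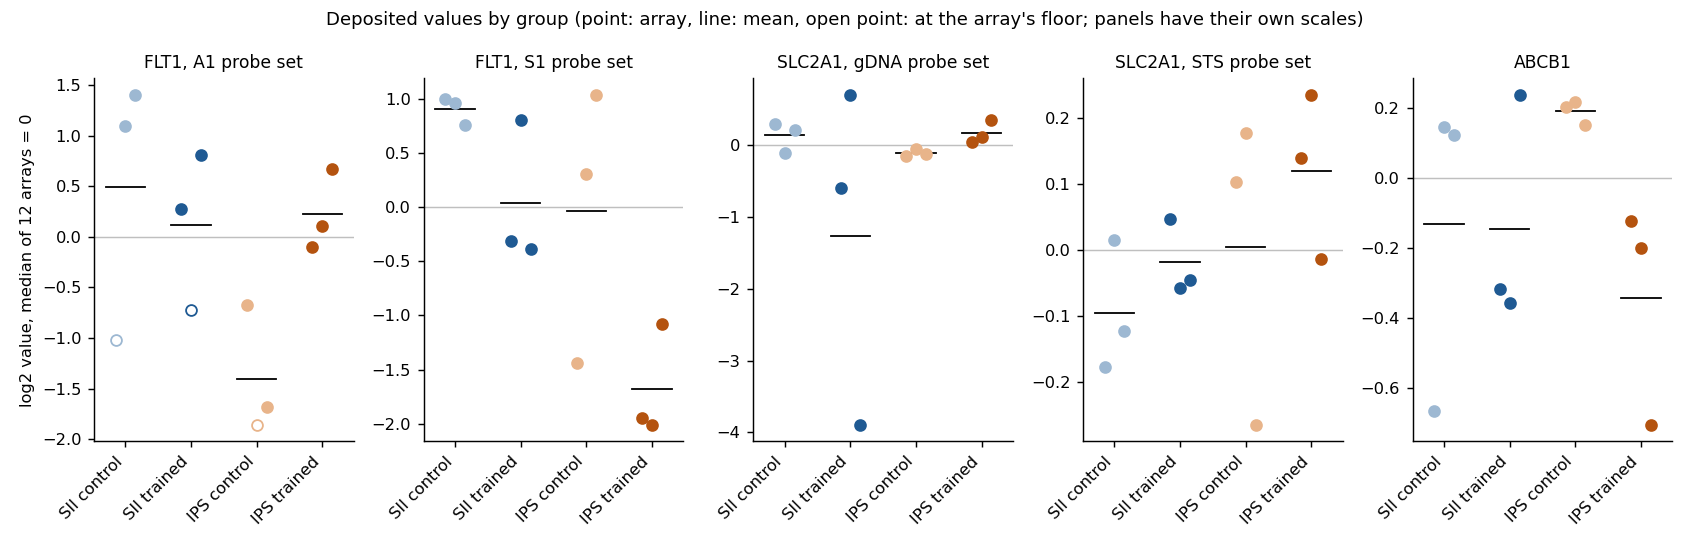
Deposited log2 value of the 5 probe sets in each of the 12 arrays by group (points), with the group mean (line) and values at the array's floor as open points; 0 is the probe set's median and each panel has its own scale. The S1 probe set of FLT1 lies between -2.01 and -1.08 in the IPS trained arrays, and 1 SLC2A1 value, SII trained 3 at -3.90, stands far below the rest.

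For SLC2A1 and ABCB1 the regions overlapped. The STS probe set of SLC2A1 moved least of the 5, with an SD within groups of 0.15, smaller than in all but 2.89% of probe sets of middle signal. It read -0.18, 0.01 and -0.12 in SII control, 0.05, -0.06 and -0.05 in SII trained, 0.10, 0.18 and -0.27 in IPS control, and 0.14, 0.23 and -0.01 in IPS trained arrays. It was higher in IPS in 4 of 4 animals, by 0.03 to 0.30, with a mean of 0.13 ± 0.12 (SD, n = 4), and in the fit by 0.08 to 0.18 over 23 alternatives. The gDNA probe set differed by -0.05 and -0.26 in the control males and by 0.65 and 4.25 in the trained males. ABCB1 was higher in IPS by 0.06, 0.10 and 0.20 in 3 animals and differed by -0.94 in the fourth, the trained male behind SII trained 3 and IPS trained 3.

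**Figure D2:**
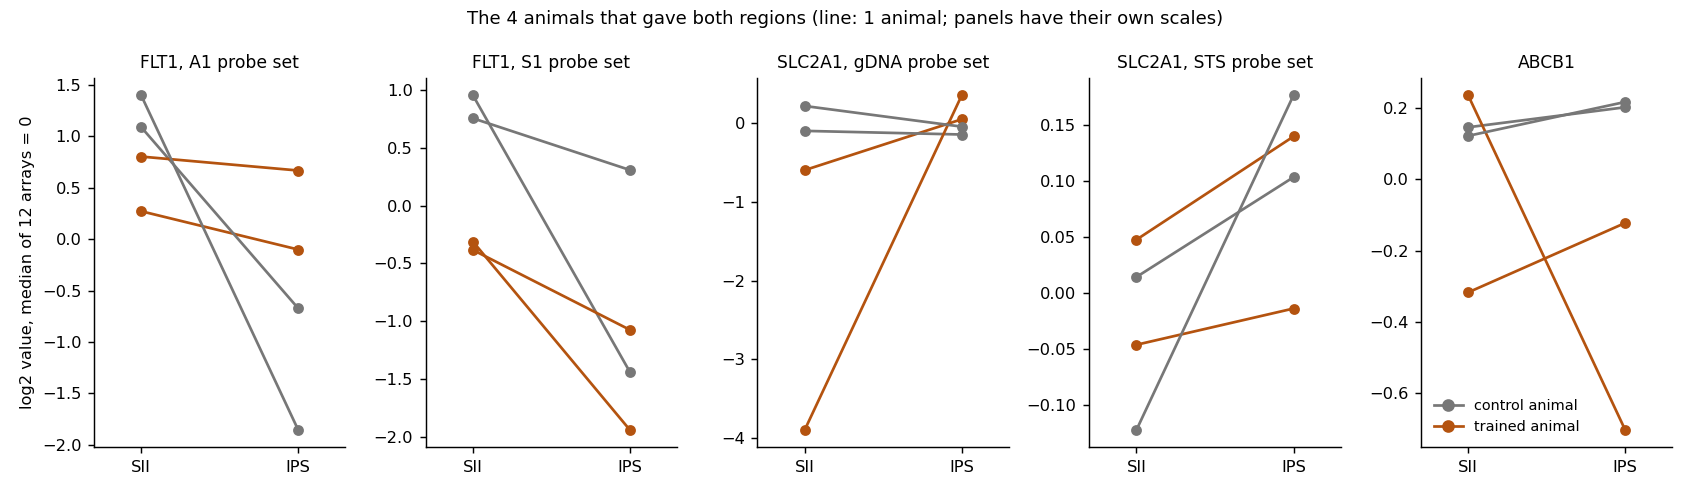
The 4 animals that gave both regions, each a line from its SII to its IPS value (log2, 0 is the median of 12 arrays; panels have their own scales), grey for the 2 control and orange for the 2 trained animals. Both FLT1 probe sets are lower in IPS along all 4 lines, the STS probe set of SLC2A1 is higher in IPS along all 4, and the gDNA probe set is 4.25 higher in 1 animal.

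Whether tool-use training went with a change was asked in each region. None of the 5 probe sets passed a false discovery rate of 5% in limma in SII, in IPS or for the difference between them, and no adjusted p of theirs lay under 0.422 in any of the alternatives. The share of probe sets past 5% was 0% in SII, 0% in IPS, 0% for the difference and 0% between the regions, with 2043, 1726, 1944 and 4888 probe sets at an unadjusted p under 0.05 and smallest adjusted p of 0.116, 0.402, 0.302 and 0.0790. Of 14132 genes 0% passed for each training contrast and 0.0212% between the regions. The latter were ACOD1, KIR2DL4 and R3HDML, named here after their values were seen and all lower in IPS. Trained and control arrays did not overlap in 7.08% of probe sets in SII and 9.49% in IPS. Among the members this held for 0 of 5 in SII and for 3 of 5 in IPS, where the A1 probe set of FLT1 and the gDNA probe set of SLC2A1 were higher and ABCB1 lower in the trained arrays. The tests are 2-sided, and the samples of a group are separate animals.

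In IPS the FLT1 probe sets differed from the controls in opposite directions, and neither difference passed adjustment. The A1 probe set averaged -1.41 ± 0.64 in control and 0.22 ± 0.40 in trained arrays (SD, n = 3), a change of 1.64 ± 0.64 (SE, 95% confidence interval 0.22 to 3.05), with all trained above all control arrays. In limma its unadjusted p was 0.0272, smaller in 1.91% of probe sets, and its adjusted p was 1.00. The S1 probe set averaged -0.03 ± 1.28 and -1.68 ± 0.52, a change of -1.63 ± 0.58 (-2.92 to -0.34, unadjusted p 0.0181 in limma, adjusted p 1.00). Its groups overlapped, because IPS control 1 lay at -1.44. The mean of both probe sets, by which FLT1 enters a gene list, hid this and changed by 0.01 ± 0.34.

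Single arrays and the floor set much of these sizes. With all floor values raised to 1 common floor the A1 change in IPS was 0.94, since IPS control 2 was at the floor and IPS control 3 lay 0.21 above it. The S1 change ran from -2.35 without IPS control 1 to -1.10 without IPS control 3. Log2 values above the floor, which put A1 on the scale of each array, were 1.28, 0 and 0.21 in IPS control and 1.62, 1.91 and 2.04 in IPS trained arrays, so the groups did not overlap on that scale either. In SII the same measure was 0, 3.48 and 2.87 in control and 1.90, 0 and 3.10 in trained arrays, and there the groups overlapped.

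In SII neither FLT1 probe set differed beyond the spread between animals. S1 changed by -0.89 ± 0.58 (SE, -2.18 to 0.40), from 0.90 ± 0.13 in controls, the tightest of its groups, to 0.04 ± 0.66 in trained arrays (SD, n = 3). SII trained 2, the female, overlapped the controls at 0.80. The error of the S1 change is pooled over all groups, among them IPS control with an SD of 1.28. With the SII arrays alone the S1 change was -0.87 ± 0.39 (SE), which did not pass adjustment either. A1 changed by -0.37 ± 0.64 (-1.79 to 1.04), with 1 array at the floor in each group, both from females. These arrays, SII control 1 and SII trained 2, also had raised hybridisation controls. They had the largest shares of probe sets at the floor, 9.69% and 9.75%. Sex and these traits of the arrays cannot be told apart in them. The change in IPS minus that in SII was 2.01 ± 0.89 for A1 (unadjusted p 0.0460 in limma, adjusted p 1.00) and -0.74 ± 0.81 for S1 (-2.54 to 1.05). With 1 common floor the A1 difference was 1.41.

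The 2 FLT1 probe sets did not follow each other over the arrays. Pearson's r between them was -0.17 and Spearman's rho -0.23 over the 12 arrays, which come from 8 animals and share the scaling of each array, and r was -0.44 with the group means removed. The same held for the SLC2A1 probe sets, with r 0.04 and rho -0.19. These are descriptions with no test.

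**Figure D3:**
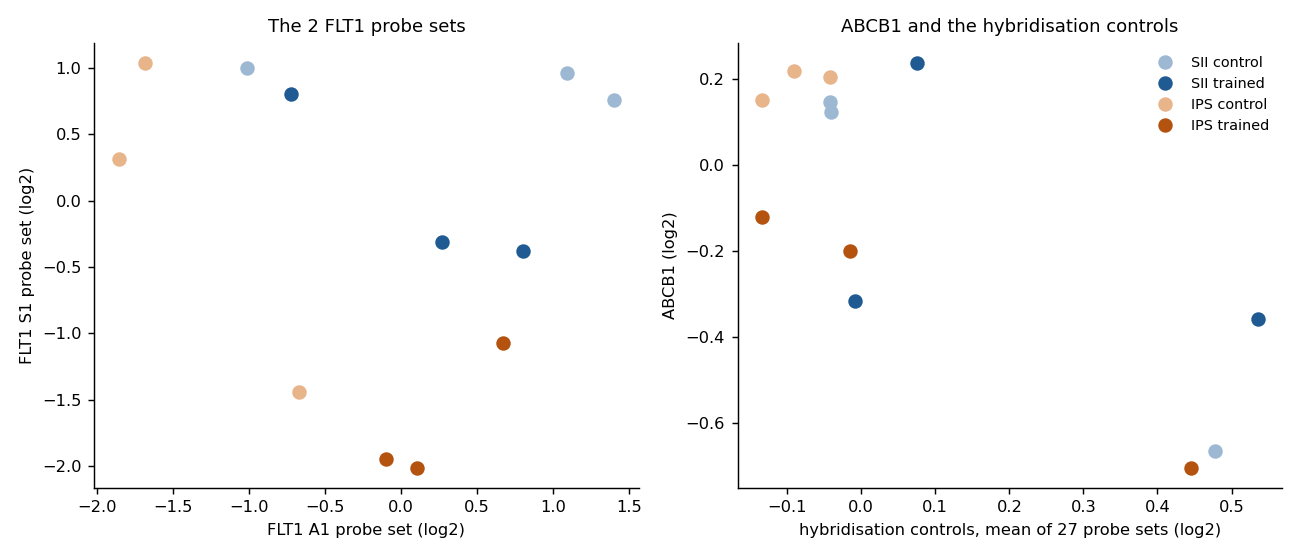
Left, the S1 against the A1 probe set of FLT1 (log2) in each of 12 arrays, coloured by group. Right, ABCB1 (log2) against the mean of 27 hybridisation control probe sets (log2); the arrays with raised controls, at 0.44 to 0.54, include the 3 lowest ABCB1 values, from -0.70 to -0.36.

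For SLC2A1 the probe sets gave different sizes, and the larger one came from 1 array. The gDNA probe set read 0.30, -0.10 and 0.22 in SII control and -0.60, 0.70 and -3.90 in SII trained arrays. The training change in SII was -1.40 ± 0.88 (SE, -3.36 to 0.55) and became -0.09 without SII trained 3. The gap of 3.30 between that array and the next lowest was reached by 9 of 17522 probe sets of low signal (0.0514%), 3 of them with the same array lowest. A floor in 1 array alone cannot be seen, and whether this value lies at the floor was not tested. The STS probe set, of higher signal, read -0.05 in that array and changed by 0.08 ± 0.20 in SII (-0.36 to 0.53).

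In IPS the gDNA probe set read -0.15, -0.05 and -0.12 in control and 0.05, 0.11 and 0.35 in trained arrays, so that the groups did not overlap, with means of -0.11 ± 0.05 and 0.17 ± 0.16 (SD, n = 3). Its fitted change was 0.31 ± 0.88 (-1.65 to 2.26), the wide error being pooled over all groups and so carrying SII trained 3. Without IPS trained 3 and the other arrays with raised hybridisation controls the fitted change was 0.03. That refit put the correlation of an animal's arrays at 0.18, against 0.05 in the main fit. The STS probe set changed by 0.12 ± 0.20 in IPS (-0.33 to 0.56). The difference between the regions' training changes was 1.71 ± 1.23 for gDNA, 0.41 without SII trained 3, and 0.03 ± 0.28 for STS.

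In IPS every trained array lay below every control array for ABCB1. It read 0.20, 0.22 and 0.15 in IPS control and -0.12, -0.20 and -0.70 in IPS trained arrays, with means of 0.19 ± 0.04 and -0.34 ± 0.32 (SD, n = 3). The change of -0.53 ± 0.29 (SE, -1.18 to 0.12) did not pass (unadjusted p 0.101 in limma, adjusted p 1.00). In SII it read -0.67, 0.15 and 0.12 in control and -0.32, -0.36 and 0.24 in trained arrays, which overlapped, and the change was -0.01 ± 0.29 (-0.66 to 0.64). The difference between the regions was -0.52 ± 0.41 (-1.42 to 0.39).

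ABCB1 was lowest in the 3 arrays with raised hybridisation controls. In these 3 arrays ABCB1 read -0.67 (SII control 1), -0.36 (SII trained 2) and -0.70 (IPS trained 3), and no other array lay under -0.32. Of the other arrays, SII trained 3 had both the highest control mean, 0.08, and the highest ABCB1 value, 0.24. SII control 1 and SII trained 2 are also the only arrays from females, so in SII raised controls and sex cannot be told apart. Without IPS trained 3 the fitted change in IPS was -0.28, and without all 3 arrays -0.33, with the 2 remaining trained arrays still below the controls. These refits also re-estimated the correlation of an animal's arrays, at 0.28 and 0.18 against 0.05 in the main fit. The difference between the 3' and 5' actin controls, which is larger where RNA is less intact, was also highest in IPS trained 3, at 1.37. It was 0.02 to 0.23 in the IPS controls and -0.79 and 0.54 in the other IPS trained arrays. SII trained 1 came next at 1.17, with ABCB1 at -0.32. Being centred, these values only compare arrays with each other. The part of either in the ABCB1 values was not tested.

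**Figure D4:**
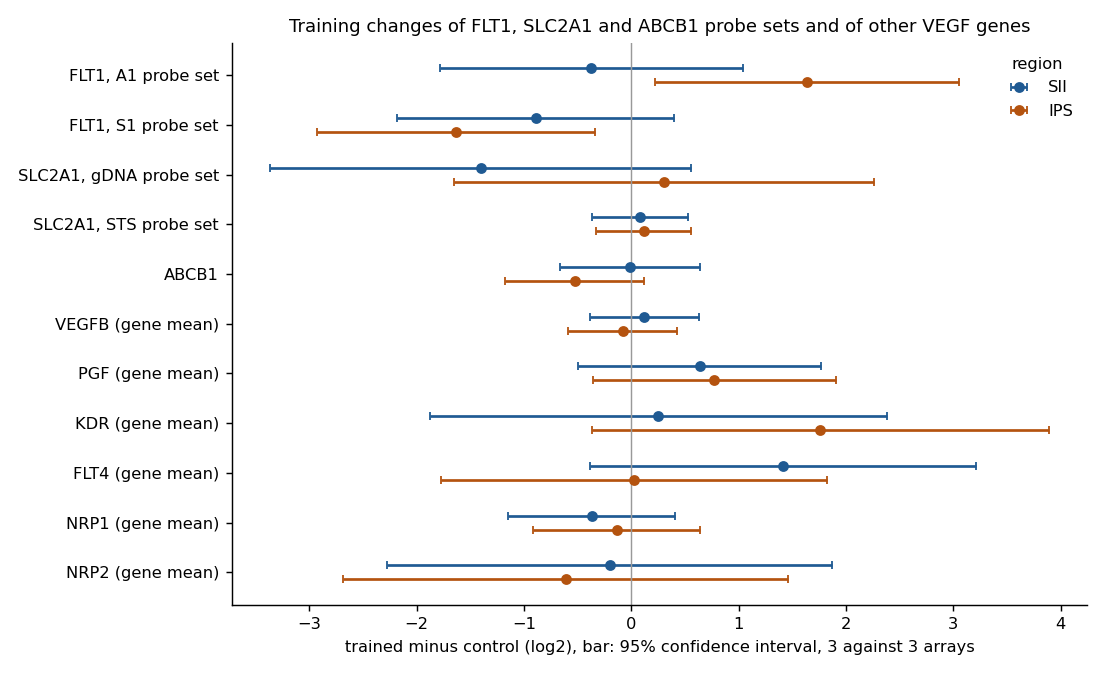
Training change (trained minus control, log2) in SII and IPS for the 5 probe sets and for the gene means of 6 other VEGF ligands and receptors, with 95% confidence intervals from the fit (3 against 3 arrays). The only intervals that leave out 0 are those of the FLT1 probe sets in IPS, 0.22 to 3.05 for A1 and -2.92 to -0.34 for S1, and neither passed after adjustment.

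The rest of the VEGF family was followed by gene means over the probe sets of each gene. Of 11 ligands and receptors listed, 7 were measured under a symbol of their own, and VEGFA and VEGFC were not among them. Among the ligands, VEGFB changed with training by 0.12 ± 0.23 in SII and -0.08 ± 0.23 in IPS (SE, n = 3 per group). Placental growth factor (PGF), which binds FLT1 alone among the signalling receptors, changed by 0.64 ± 0.51 and 0.77 ± 0.51, with low signal. Among the receptors, KDR changed by 0.25 ± 0.96 and 1.76 ± 0.96, with floor values in its only probe set. FLT4, the receptor of lymphatic and sprouting endothelium, changed by 1.42 ± 0.81 and 0.02 ± 0.81. The co-receptors changed by -0.37 ± 0.35 and -0.14 ± 0.35 (NRP1) and by -0.20 ± 0.94 and -0.61 ± 0.94 (NRP2). FLT4 and NRP2 each rest on 1 probe set of low signal, and 2 of 3 probe sets of NRP1 and 1 of 2 of VEGFB had a low signal.

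With FLT1 counted, 4 of 7 were higher and 3 lower in each region, with medians of 0.12 in SII and 0.01 in IPS, against 0.03 over all genes in both. None of the 7 passed. Between the regions, 5 of the 6 genes other than FLT1 were lower in IPS, with a median of -0.39 against -0.02 over all genes. VEGFB differed by -0.56 ± 0.16 (SE, adjusted p 0.340 in limma) and NRP1 by -0.52 ± 0.24 (0.474). The others differed by -0.50 ± 0.66 (KDR), -0.28 ± 0.56 (FLT4), -0.04 ± 0.35 (PGF) and 0.10 ± 0.64 (NRP2). VEGFB averaged 0.19 ± 0.12 and 0.29 ± 0.25 in SII control and trained arrays and -0.28 ± 0.21 and -0.37 ± 0.38 in IPS (SD, n = 3). Its lowest SII array, at 0.08, lay just above the highest IPS array, at 0.07, and the regions of 1.09% of all genes did not overlap either.

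The other endothelial and mural genes were counted in each contrast. Of 35 genes of endothelial identity and junctions, 26 were measured, and 13 were higher and 13 lower with training in SII (median 0.00) and 17 higher and 9 lower in IPS (median 0.08), with none past 5%. OCLN, a tight junction protein, changed by 0.69 ± 0.39 in SII and SOX18, an endothelial transcription factor, by 0.80 ± 0.40 in IPS. Between the regions, 11 of 23 were higher and 12 lower in IPS, leaving out the members, with a median of -0.02. SOX18 had the smallest p, at -1.24 ± 0.27 (adjusted p 0.247 in limma), and SOX17 was at 0.59 ± 0.25 (0.452). Of 14 measured genes of pericytes and vascular smooth muscle, 11 were lower in IPS (median -0.06), among them VTN, a plasma and pericyte protein, at -1.68 ± 0.52 (0.372), while ACTG2 was at 0.63 ± 0.33 (0.520). With training 7 were higher and 7 lower in SII and 5 higher and 9 lower in IPS, and the training change in IPS minus that in SII was below 0 in 12 of 14 (median -0.20 against -0.0046 over all genes). PDGFB, the ligand by which endothelium recruits pericytes, changed by -0.52 ± 0.20 in SII and 0.29 ± 0.20 in IPS, and ANPEP by 0.42 ± 0.25 and 0.40 ± 0.25, with none past 5%.

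Of 19 measured genes of angiopoietin, Notch and TGF-beta signalling in vessels, 12 were higher in SII (median 0.07) and 11 in IPS (median 0.02), with none past 5%. The tip cell ligand DLL4 changed by 0.56 ± 0.26 and endothelin EDN1 by 0.45 ± 0.24 in SII, and the arterial genes EFNB2 and HEY2 by 0.78 ± 0.35 and 0.73 ± 0.40 in IPS.

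Around SLC2A1, 10 of 13 hexose transporters were measured and none passed. With SLC2A1 counted, 5 were higher in SII (median 0.02) and 3 in IPS (median -0.13). SLC2A9, a urate and hexose carrier whose probe set carries the floor, changed by -0.96 ± 0.62 in SII and 1.28 ± 0.62 in IPS. SLC2A3, the neuronal glucose carrier GLUT3, changed by -0.21 ± 0.20 in IPS. Of 17 measured targets of hypoxia-inducible factors, among them SLC2A1, 8 were higher in SII (median -0.03) and 11 in IPS (median 0.07), with none past 5%. PFKFB3, which drives glycolysis, changed by -0.62 ± 0.56 in SII, and in IPS HIF3A changed by -0.63 ± 0.34 and ADM, the vasodilator adrenomedullin, by 0.40 ± 0.26.

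Around ABCB1, 10 of 11 ABC efflux transporters were measured, and with ABCB1 counted 8 of 10 were lower in the IPS trained arrays (median -0.14 against 0.03 over all genes, of which 54.6% were higher) and 6 of 10 in SII (median -0.03), with none past 5%. ABCB4, the phospholipid pump next of kin to ABCB1, went the other way in IPS at 0.77 ± 0.48. In SII the smallest p were those of ABCC1 at -0.24 ± 0.18 and ABCC2 at 0.79 ± 0.61. The other barrier transporters, 13 of 20 measured, were higher in 7 cases in SII (median 0.19) and 10 in IPS (median 0.08), with none past 5%. The taurine carrier SLC6A6 changed by -0.76 ± 0.44 in SII and 0.89 ± 0.44 in IPS, the thiamine carrier SLC19A3 by 0.47 ± 0.33 in SII and the large amino acid carrier SLC7A5 by 1.06 ± 0.79 in IPS.

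No gene of the other cell type lists passed 5% in any contrast. Microglia and macrophage genes were lower in IPS in 11 of 12 cases (median -0.33), with C1QB at -0.70 ± 0.11 (adjusted p 0.111 in limma) and CSF1R, a defining marker, at -0.58 ± 0.17 (0.353). The mean of the 4 microglial markers ran from -0.08 to 0.37 in SII and from -0.76 to -0.02 in IPS arrays. Medians for IPS minus SII were -0.10 for astrocytes, 0.05 for neurons, -0.03 for oligodendrocytes, -0.09 for red blood cells, -0.04 for meninges and -0.28 for choroid plexus. In IPS the training medians were 0.04, 0.23, 0.30, 0.22, -0.19 and -0.08 in the same order, and 0.31 for microglia. In SII they were -0.02, -0.11, 0.08, 0.15, -0.15 and 0.39, and 0.05 for microglia. The part of these cells in the FLT1, SLC2A1 and ABCB1 values was not tested.

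The genes most alike to each member were sought among 9195 genes (9194 for SLC2A1 and ABCB1) with probe sets of middle or high signal. For FLT1 as the mean of both probe sets, they were TRABD2B (r 0.86), DUSP18 (0.83), BICD2 (0.82), SLC16A7 (0.81) and PINLYP (0.80), and r was 0.86, 0.67, 0.50, 0.73 and 0.20 with the group means removed. Without the 2 arrays farthest from the FLT1 median r was 0.63, 0.83, 0.89, 0.62 and 0.55. For SLC2A1 they were XKR8 (0.90), HGFAC (0.89), ZBTB37 (0.87), SEMA4B (0.86) and RPS16 (0.84). The SLC2A1 mean is set by SII trained 3, and without the 2 arrays farthest from its median r fell to 0.02 for XKR8, 0.40 for SEMA4B and 0.01 for RPS16, while it was 0.87 for HGFAC and 0.85 for ZBTB37. For ABCB1 they were FAM98B (0.93), RCAN1 (0.87), KLHL12 (0.86), GRHL1 (0.85) and IL2 (0.85), with 0.92, 0.91, 0.93, 0.77 and 0.92 once the group means were removed. Without the 2 arrays farthest from the ABCB1 median r was 0.85, 0.74, 0.79, 0.78 and 0.53. These r are over 12 arrays that share their scaling, and 0.0435%, 0.109% and 0.261% of the genes compared had an r over 0.8 with FLT1, SLC2A1 and ABCB1.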

How the data were processed

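The authors deposited 1 log2 value for each probe set and array, centred so that the median over the 12 arrays is 0. That the base is 2 was judged by how far the values spread. MAS5 is named without a version per the submitters' processing notes, and the sources used here do not say how arrays were scaled. Of 52865 probe sets, 99 controls were left out. The gene table gave a single symbol to 24956 of the rest, several to 361 and none to 27449.

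The floor was recognised because at least 777 probe sets shared 1 difference between each pair of arrays, against at most 3 for the next commonest. It was set before scaling, and it lay up to 1.67 apart in different arrays. Signal classes (at least 256 high, at least 16 middle, in 11 of 12 arrays) were read from the spacing of the numbers once these offsets were taken off.

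The model, in limma 3.58.1 with R 4.3.3, had 4 group means, arrays of an animal tied by 1 correlation over all probe sets (0.0474; 0.0862 for gene means), empirical Bayes moderation and Benjamini-Hochberg adjustment over all 52766 probe sets or 14132 genes at a false discovery rate of 0.05. Gene means average all probe sets of a symbol. The number of arrays limits the precision. The scripts were tested on simulated data. Alternatives were other scalings, covariates, weights, floors and subsets of arrays. Named were all members, all measured VEGF genes and up to 2 genes per other list by smallest p, plus the 5 genes most alike. The members and lists were chosen with earlier results of these data known. Sequences were not used here.

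Same-numbered arrays of different animals did not deviate together (mean correlation of deviations from the group means -0.03, range -0.20 to 0.06). Arrays of the same animal hardly did so either, with means of -0.02 for 2 pairs of the same number and 0.04 for 2 pairs of different numbers. The check therefore cannot tell whether the replicate numbers pair samples of different animals.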

Additional observations from a re-analysis of the deposited data

Results flagged for a closer look

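The gDNA probe set of SLC2A1 moved one way between the regions in both control animals and the opposite way in both trained animals. The mean of IPS minus SII was -0.15 in the 2 control and 2.45 in the 2 trained animals, a difference of 2.60 log2 units that was not tested. It came mostly from SII trained 3, at -3.90. The STS probe set of the same gene was higher in IPS in all 4 animals, by 0.03 to 0.30.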

How the results depend on the processing

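No member probe set passed 5% for a training contrast in any alternative, and both FLT1 probe sets kept the sign of their training change in IPS and for the difference. Their sign between the regions was kept too, but FLT1 was chosen by it from these arrays, so nothing is drawn from that. With the replicate block the A1 change in IPS was 1.628 and that of S1 -1.64, and 0 probe sets and 1 gene (between the regions) passed. The cause of the changes of direction below was not tested. With age as a covariate ABCB1 changed by 0.062 in SII and the STS difference of training changes was -0.10. ABCB1 between the regions was -0.00217 with array weights, -0.12 with sex or with males only, -0.015 without the 3 arrays with raised hybridisation controls and -0.15 in the animals with both regions. Both female arrays are among those 3, so the settings for sex, males only and without the 3 arrays are not separate checks. In SII, KDR changed by -0.45 with array weights, -0.998 with males only and -0.979 without the 3 arrays, and NRP2 by 0.28, 1.20 and 1.07. In IPS, VEGFB changed by 0.011 with array weights and 0.058 without the 3 arrays, FLT4 by -0.00209 with no animal correlation, the replicate block, males only or IPS alone, -0.17 with array weights and -0.10 without the 3 arrays, and ANPEP by -0.15 without floor probe sets. Between the regions FLT4 was at 0.11 with sex or males only, 0.061 without the 3 arrays and 0.15 in the animals with both regions, and NRP2 at -0.16 with array weights and -0.24 without the 3 arrays.

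Probe sets past 5% in SII numbered 1 with quantile normalization and 2 with array weights, sex or a common floor, and genes 2 with quantile normalization and 1 with age. The difference gave 1 probe set without the 3 arrays. Between the regions 5 probe sets passed with quantile normalization, 2 with sex and 1 with a common floor. Genes there numbered 1 with quantile normalization, males only or no floor probe sets, and 0 with no animal correlation, sex, age, a common floor, without the 3 arrays or in the animals with both regions.

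With 1 array left out at a time, probe sets past 5% numbered 0 to 3 in SII (3 without SII trained 3), 0 to 2 in IPS (2 without IPS trained 1), 0 to 2 for the difference (2 without IPS trained 1) and 0 to 14 between the regions (14 without SII trained 3), and genes 0 to 4 (4 without SII trained 3), 0 to 1 and, between the regions, 0 to 9 (9 without SII trained 3). A1 in SII ran from -1.12 (without SII control 1) to 0.082 (without SII control 3), and ABCB1 there from -0.28 to 0.12. STS ran from -0.018 to 0.20 in IPS and from -0.10 to 0.12 for the difference. Between the regions ABCB1 ran from -0.072 to 0.15 and gDNA from -0.016 (without SII trained 3) to 1.09. In SII, VEGFB ran from -0.024 to 0.21, KDR from -0.38 to 1.11 and NRP2 from -0.89 to 0.53. In IPS, VEGFB ran from -0.30 to 0.059, FLT4 from -0.36 to 0.50, NRP1 from -0.35 to 0.12 and NRP2 from -1.44 to 0.40. Between the regions PGF ran from -0.24 to 0.20, FLT4 from -0.74 to 0.054 and NRP2 from -0.29 to 0.56.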

Other observations

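Since the mean of the FLT1 probe sets joins differences of opposite sign in IPS, the genes most alike to the S1 probe set alone were also sought, after its values had been seen. They were CEP85 (r 0.89 over 12 arrays), RTBDN (0.89), ST3GAL3 (0.85), SLC33A2 (0.82) and TAGLN2, an actin-binding protein (0.82). With the group means removed r was 0.94, 0.62, 0.73, 0.40 and 0.64. For the STS probe set of SLC2A1 they were TSHZ2 (0.90), ZNF391 (0.88), RABEP1 (0.86), TCIM (0.84) and GSKIP (0.83), and with the group means removed 0.88, 0.87, 0.88, 0.80 and 0.80. None of these 10 genes was among those most alike to the mean of both probe sets. The S1 probe set of FLT1 and the STS probe set of SLC2A1 ran against each other over the arrays, with r -0.73 and rho -0.77, and r -0.59 within groups. The arrays share animals and scaling, so these are descriptions with no test.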
